A study of Sus scrofa with 6 samples.

Results

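Genes of the epithelial junction and of epithelial adhesion were examined in single-cell RNA-seq of the piglet ileum. They were EPCAM, CDH1, CDH17, CLDN3, CLDN4, CLDN7, CLDN15, OCLN, TJP1 and F11R, 10 of the 20648 genes in the tables, and all 10 symbols were found. The libraries came from the ileum of male Large White piglets at day 0, 1, 3, 7, 14 and 21 of age, fed by their mothers, with 1 library for each age. Each library was made from the piglets of its age together, so the spread between animals could not be read and no difference between ages could be tested. Of 76099 barcodes with at least 1000 unique molecular identifiers (UMIs, 1 for each captured transcript) and 500 genes, 3634 were taken as epithelial from KRT8, a keratin, and VIL1, a brush border protein (at least 5 UMIs together and at most 1 UMI of PTPRC, the leukocyte marker). They were split into 617 enteroendocrine cells (CHGA and CHGB, granule proteins, at least 10 UMIs), 348 crypt cells (OLFM4, a crypt progenitor marker, at least 5 UMIs) and 2669 other epithelial cells, and 47002 B cells (MS4A1 and PAX5, at least 2 UMIs) served as background.

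Neighbouring epithelial cells are sealed at their apical sides by tight junctions, below which adherens junctions hold the cells together. Claudins form the paracellular barriers and pores of the tight junction, occludin (OCLN) is a further membrane protein of it, F11R (JAM-A) is an immunoglobulin-like adhesion molecule there, and TJP1 (ZO-1) is the scaffold that ties these proteins to actin. E-cadherin (CDH1) forms the adherens junction, CDH17 is a cadherin of the intestinal epithelium that lacks the catenin-binding tail of CDH1, and EPCAM is a surface adhesion protein that binds and stabilises CLDN7. In the gut CLDN15 is known for a sodium-permeable pore, while CLDN4 is counted among the barrier-tightening claudins.

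In the RefSeq annotation of Sscrofa11.1, CLDN15 (8931099 to 8937189), CLDN3 (11019073 to 11020102), CLDN4 (11039711 to 11053930) and EPCAM (93169800 to 93185221) lie on chromosome 3. CDH17 (42508852 to 42597888) and F11R (89425101 to 89447889) lie on chromosome 4, CDH1 (18075487 to 18155986) on chromosome 6, CLDN7 (52612517 to 52628376) on chromosome 12 and OCLN (47600175 to 47652435) on chromosome 16. TJP1 (144930387 to 145195857) lies on chromosome 1 and overlaps the annotated gene SEH1L, which held at most 3 UMIs in any class of any library.

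Most epithelial cells came from days 0 and 1, with 2507, 877, 78, 147, 24 and 1 cells at days 0, 1, 3, 7, 14 and 21, while B cells numbered 1538, 2574, 6946, 9536, 14029 and 12379. Classes with fewer than 20 cells in a library were left out of comparisons, so the single epithelial cell of day 21 gave no level. Total UMIs per library ran from 77391932 to 100348769, and median UMIs per cell from 3693 to 4560. Summed levels of 9 further epithelial markers were 28.2 to 182 UMIs per 10000 in the epithelial classes and 0.0325 to 7.80 in B cells, and those of 7 further B cell markers were 11.6 to 20.5 in B cells and 0.125 to 1.39 in the epithelial classes. The 12 further enteroendocrine markers summed to 160 to 323 in enteroendocrine cells and 0 to 72.9 in other epithelial cells. The 10 further crypt markers, which include cell cycle genes and SPINK4, summed to 20.8 in crypt cells and 21.5 in other epithelial cells at day 0, and to 41.5 and 13.9 at day 1. All 10 were found in at least 10% of crypt cells at both ages, against 5 and 4 of them in other epithelial cells. The 34 other epithelial cells of day 3 held them at 59.5, above crypt cells of either age, with 9 of 10 in at least 10% of cells. A list of 7 goblet markers summed to 58.0 and 49.1 in crypt cells at days 0 and 1. In other epithelial cells it summed to 184, 105 and 344 at days 0, 1 and 3. The part of goblet cells in the crypt marker sums was not tested. Possible doublets were kept, and 53 cells passing both gates counted as epithelial. Pairs of libraries shared 31 to 68 cell barcodes where their sizes gave 18.1 to 32.4 by chance, 59 epithelial cells were among these, and with shared barcodes left out 10 members were still called against B cells.

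A level is the number of UMIs of 1 gene in every 10000 UMIs that a class held, and intervals are exact 95% Poisson or binomial intervals that cover counting error only. EPCAM in the other epithelial cells was 9.28, 7.75, 7.63, 18.0 and 28.3 per 10000 at days 0, 1, 3, 7 and 14, against 1.84, 0.487, 0.0291, 0.0992 and 0.0177 in the B cells of the same libraries. The epithelial level was the higher one in each of these 5 libraries, 5.04 times at day 0 (4.79 to 5.32), 15.9 times at day 1 (14.7 to 17.2) and 262 times at day 3 (213 to 324). Within the class, the middle 50% of the 1782 other epithelial cells of day 0 held EPCAM between 5.12 and 12.9 per 10000. At day 14 the range was 22.5 to 32.5 in 24 cells, of which 23 passed a gate for FABP6, the ileal bile acid carrier. These ranges describe cells of 1 library for each age and do not cover the spread between animals. CDH1 was 0.849, 1.55, 1.33, 1.69 and 3.11 per 10000 in the other epithelial cells and 0.236, 0.100, 0.0129, 0.0195 and 0.00385 in B cells. CDH17 was 1.78, 5.21, 1.23, 4.50 and 8.37 per 10000 in the other epithelial cells and at most 0.303 in B cells.

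The claudins were likewise above the B cell level in the 5 libraries. CLDN3 was 2.09, 3.1, 2.96, 1.86 and 4.96 per 10000 in the other epithelial cells at days 0, 1, 3, 7 and 14, CLDN4 was 6.15, 10.5, 3.42, 4.59 and 5.26, and CLDN7 was 7.80, 8.38, 4.67, 15.1 and 21.2. CLDN15 was 1.14, 1.46, 0.934, 1.31 and 0.359 per 10000, and the day 14 value rested on 6 UMIs in 24 cells (0.132 to 0.781). OCLN was 0.482, 0.688, 0.427, 0.561 and 0.897 per 10000. F11R was hardly seen, at 0 to 0.0267 per 10000, and 0.168% of other epithelial cells at day 0 and 0.435% at day 1 held an F11R UMI after each cell was thinned to 1000 UMIs.

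**Figure D1:**
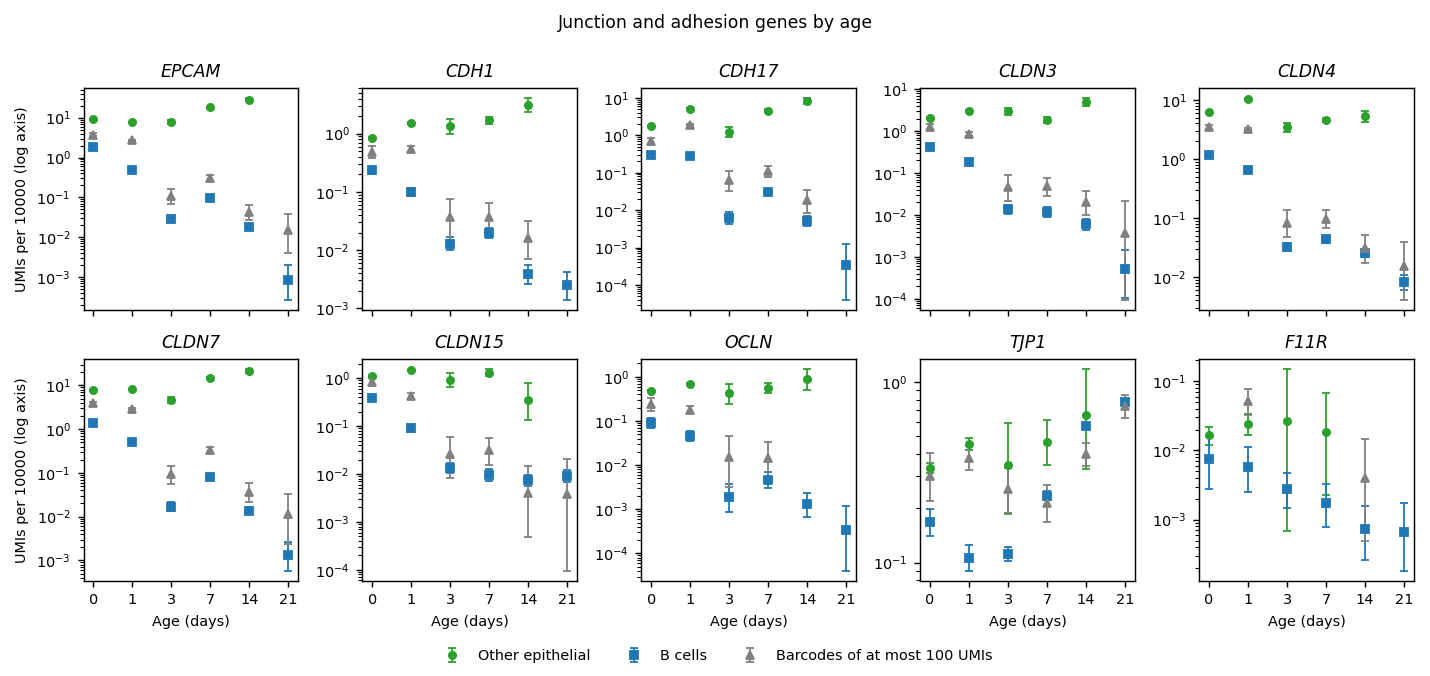
Level of each gene by age in other epithelial cells (circles), B cells (squares) and barcodes of at most 100 UMIs, which hold free RNA (triangles), in UMIs per 10000 on a log axis with exact 95% Poisson intervals. Values of 0 are not drawn, and the single epithelial cell of day 21 is left out. In B cells EPCAM was 1.84 at day 0 and 0.000841 at day 21, while TJP1 was 0.168 and 0.775.

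Across libraries, the sums of UMIs for each class and library were compared with edgeR's quasi-likelihood test, with the library as a block and Benjamini-Hochberg adjustment over 13756 genes. All 10 members were higher in other epithelial cells than in B cells, beside 26.1% of all genes tested that were called higher. Their median log2 fold change was 5.21, beside -0.17 over all genes. EPCAM was higher by 5.68 ± 1.25 (SE) on the log2 scale (adjusted p = 0.00273), CDH1 by 5.01 ± 1.04 (0.00199) and CLDN3 by 5.69 ± 1.05 (0.00102). The smallest differences were those of F11R, 1.85 ± 0.53 (0.0111), and TJP1, 0.94 ± 0.25 (0.00727). F11R in other epithelial cells was 2.20 (0.936 to 6.29), 4.19 (1.91 to 10.4), 9.52 (0.224 to 63.4) and 10.8 (1.13 to 52.0) times the B cell level at days 0, 1, 3 and 7, from 46, 35, 1 and 2 UMIs, and at day 14 these cells held 0 UMIs. The intervals of days 0 and 3 include no difference. The calls of these 2 genes were less firm. Leaving out day 1 gave an adjusted p of 0.0796 for TJP1 and 0.0690 for F11R, whose log2 fold change was then 2.09. Leaving out day 0 gave 0.0507 for TJP1, and a fit without the library block gave 0.722 for TJP1. The log2 fold changes of TJP1 in the fits that lost its call ran from 0.20 to 0.97. In the libraries of days 3, 7 and 14 alone, a choice made after seeing the data, 8 members remained called, TJP1 had an adjusted p of 0.213 and F11R was below the filter on low counts.

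The ratio of other epithelial to B cells differed widely between libraries. For the 8 members other than TJP1 and F11R it lay between 2.91 and 5.86 at day 0, between 14.8 and 19.0 at day 1 and between 68.8 and 274 at day 3. It was 86.8 to 191 at day 7 and 48.9 to 1619 at day 14. B cells also held less of these genes than barcodes of at most 100 UMIs at days 0 and 1. For EPCAM the B cell level was 0.491 and 0.182 times that of these barcodes, for CLDN4 0.341 and 0.204 times, and for CLDN7 0.351 and 0.180 times. EPCAM in these barcodes was 3.75, 2.68, 0.109, 0.305, 0.0426 and 0.0151 per 10000 at days 0, 1, 3, 7, 14 and 21, and was lowest where epithelial cells were fewest. The part of free RNA and of doublets in the B cell values was not tested.

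TJP1 was also found outside the epithelium. Its level in the other epithelial cells was 0.336, 0.452, 0.347, 0.467 and 0.658 per 10000 at days 0, 1, 3, 7 and 14. In B cells it was 0.168, 0.107, 0.111, 0.235, 0.572 and 0.775 at days 0, 1, 3, 7, 14 and 21, where EPCAM in the same cells was highest at day 0 and lowest at day 21. The ratio of other epithelial to B cells was 2.0 (1.67 to 2.41) at day 0 and 4.24 (3.54 to 5.10) at day 1. It was 3.11 (1.65 to 5.37) at day 3, 1.99 (1.47 to 2.64) at day 7 and 1.15 (0.574 to 2.06) at day 14, where the interval includes no difference. From day 7 on TJP1 in B cells was at or above its level in free RNA, with ratios of 1.10, 1.44 and 1.06 at days 7, 14 and 21, against 0.325, 0.415 and 0.0556 for EPCAM. CLDN15 also had ratios above 1 at days 14 and 21 (1.81 and 2.40), from 2 and 1 UMIs in free RNA, and CLDN4 had 0.818 at day 14 from 15. After thinning, 1.04%, 0.583%, 0.979%, 2.31%, 5.08% and 7.62% of B cells held a TJP1 UMI from day 0 to day 21. Between days 7 and 14, TJP1 in B cells was 2.44 times higher (2.29 to 2.60), the 1 of 9 members at least 2 times higher, beside 4.52% of all genes, while 5 were at least 2 times lower, beside 10.7%. At the earlier steps TJP1 was 0.635 (day 1 to day 0), 1.04 (day 3 to day 1) and 2.11 times (day 7 to day 3). The members at least 2 times lower in B cells were 5 of 9 at the first of these steps (beside 10.4% of genes) and 9 of 10 at the next (13.8%, with 9.64% higher), and 5 of 10 were higher at day 7 than at day 3 (5.96%, with 8.01% lower).

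Gates added after these values were seen showed where else TJP1 was found. B cells with at least 2 UMIs of the cell cycle genes MKI67 and TOP2A held 0.289, 0.152, 0.176, 0.356, 0.686 and 0.928 per 10000 at days 0, 1, 3, 7, 14 and 21, against 0.145, 0.0989, 0.0696, 0.173, 0.392 and 0.668 in the remaining B cells. The cells with cell cycle transcripts had the higher level in the 6 libraries, with overlapping intervals at day 1 (0.103 to 0.216 against 0.0818 to 0.118). They also held more UMIs, with a median of 10202 against 4116 at day 3, and at day 0 more EPCAM (4.42 against 1.35 per 10000), and the part of this in the difference was not tested. Endothelial cells (PECAM1 and CDH5, at least 3 UMIs) held 2.17, 2.0 and 2.10 per 10000 at days 0, 1 and 3, and stromal cells (collagens COL1A1 and COL3A1, at least 5 UMIs) held 0.742, 0.778 and 0.812. These levels were above that of TJP1 in any epithelial class at the same ages. EPCAM in the endothelial cells was 0.516, 0.139 and 0 per 10000. CLDN3 was also seen there, at 1.20, 0.628 and 0.356 per 10000, while KRT8 was 1.22, 0.177 and 0. T cells (CD3E and CD3G, at least 2 UMIs) held CDH1 at 0.408, 0.155, 0.170, 0.0756, 0.247 and 0.159 per 10000 at days 0, 1, 3, 7, 14 and 21, against 0.493, 0.543, 0.0363, 0.0371, 0.0162 and 0 in free RNA. They held CDH17 at 0.407, 0.271, 0.251, 0.124, 0.0651 and 0.101, against 0.685, 1.85, 0.0623, 0.108, 0.0183 and 0. Both genes were below free RNA at days 0 and 1 and above it from day 3 on, where the free RNA values rest on 0 to 38 UMIs and the CDH17 values of day 7 were close. EPCAM in T cells was 1.98, 0.478, 0.0237, 0.124, 0 and 0.

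**Figure D2:**
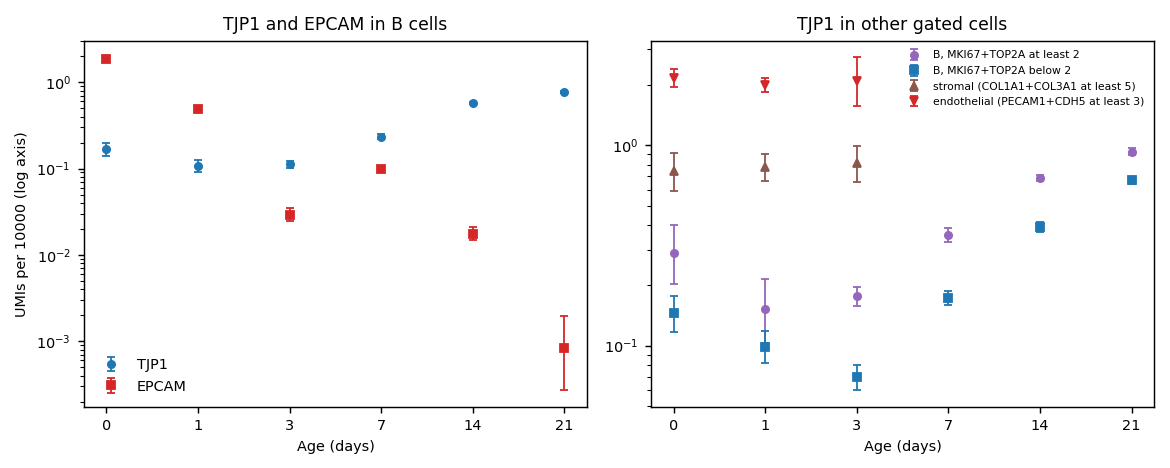
Left, TJP1 (circles) and EPCAM (squares) in B cells by age; right, TJP1 in B cells with and without cell cycle transcripts and in stromal and endothelial cells, all in UMIs per 10000 on log axes with exact 95% Poisson intervals. TJP1 in B cells was lowest at day 1, at 0.107, and highest at day 21, at 0.775, and endothelial cells held 2.0 to 2.17.

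Crypt cells held less CLDN4 and less CDH17 than the other epithelial cells of the same library. CLDN4 was 2.22 (2.11 to 2.33) per 10000 in crypt cells at day 0 and 2.64 (2.47 to 2.83) at day 1, against 6.15 and 10.5 in the other cells, which is 0.361 and 0.251 times their level. CDH17 was 0.337 and 1.46 per 10000 in crypt cells against 1.78 and 5.21, or 0.189 and 0.280 times. The other class was a mixture, and the part of its make-up in these ratios was not tested. Goblet cells within it held CLDN4 at 14.4 and 12.8 per 10000 and CDH17 at 1.56 and 4.26. FABP6 cells held CLDN4 at 4.13 and 9.56 and CDH17 at 1.53 and 4.28. Apolipoprotein cells held CLDN4 at 4.56 and 10.3 and CDH17 at 2.34 and 5.95. The cells left after goblet, FABP6 and apolipoprotein cells were set aside held CLDN4 at 2.93 and 5.23 per 10000 and CDH17 at 1.05 and 1.95, nearer to the crypt levels. OCLN was 0.787 and 0.416 times the level of the other cells. Within these, goblet cells held OCLN at 0.825 and 0.864 per 10000 at days 0 and 1. FABP6, apolipoprotein and remaining cells held 0.413, 0.408 and 0.344 at day 0 and 0.581, 0.665 and 0.680 at day 1. The part of goblet cells in the OCLN ratios was not tested. EPCAM was 10.1 and 9.48 per 10000 in crypt cells, or 1.09 (1.06 to 1.12) and 1.22 (1.18 to 1.27) times, and CDH1 was 1.31 and 1.23 times. CLDN15 and CLDN3 went in different directions at the 2 ages. CLDN15 was 3.32 against 1.14 per 10000 at day 0 and 1.06 against 1.46 at day 1, and CLDN3 was 1.09 (1.03 to 1.15) and 0.632 (0.581 to 0.686) times the level of the other cells. CLDN7 was 0.818 and 0.717 times. Crypt cells held more UMIs per cell (medians of 21899 and 26966, against 12330.5 and 18909). After thinning to 1000 UMIs, 21.4% and 20% of crypt cells held a CLDN4 UMI, against 41.9% and 58.1% of the other cells, and 1.71% and 16.8% held CDH17, against 14.9% and 36.1%.

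The test of this contrast depended on whether B cells entered the fit. In the fit with all 4 classes, 0 of 10 members passed in crypt against other epithelial cells (edgeR, 1 at an unadjusted p below 0.05, 1 with DESeq2), beside 3.58% of all genes called lower and 2.97% called higher. That fit gave CLDN4 a log2 fold change of -3.04 ± 1.09, CDH17 of -3.30 ± 1.66 and OCLN of -2.37 ± 1.23. It gave EPCAM a log2 fold change of -1.56, although the level of EPCAM was 1.09 and 1.22 times higher in crypt cells within the libraries. A fit on the epithelial classes alone, added after the data were seen, tested 9 members (F11R was below the filter) with 3 residual degrees of freedom. There CLDN4 had a log2 fold change of -1.81 ± 0.24 (adjusted p = 0.000651, edgeR's quasi-likelihood test), CDH17 of -1.97 ± 0.37 (0.00377) and OCLN of -0.86 ± 0.24 (0.0264), beside 15.5% of 11745 genes called lower and 11.2% called higher. EPCAM was 0.12 ± 0.22 (adjusted p = 0.729), CDH1 0.28 ± 0.19 (0.318), CLDN7 -0.38 ± 0.23 (0.264), CLDN3 -0.46 ± 0.29 (0.274), CLDN15 0.40 ± 0.39 (0.482) and TJP1 -0.20 ± 0.20 (0.497). Only 2 libraries held enough crypt cells. Without day 0 or day 1 a single sum of crypt cells remained, which was assumed to vary like the sums of the other classes. For these fits effect sizes alone are given. Without day 0 CLDN4 was -2.01 and CDH17 -1.52. OCLN was -1.27 in 1 of these 2 fits and -0.48 in the other. With DESeq2 OCLN did not pass (-0.81, adjusted p = 0.151). The calls thus rest on 2 crypt sums. Without day 3, whose other epithelial cells held the most crypt and goblet marker UMIs per 10000, CLDN4 (-1.81), CDH17 (-2.17) and OCLN (-0.86) passed. Day 3 held 15 crypt cells and so no crypt sum, and it entered this contrast only through the other classes. The fit without it therefore says little about the make-up of the other epithelial cells at days 0 and 1.

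**Figure D3:**
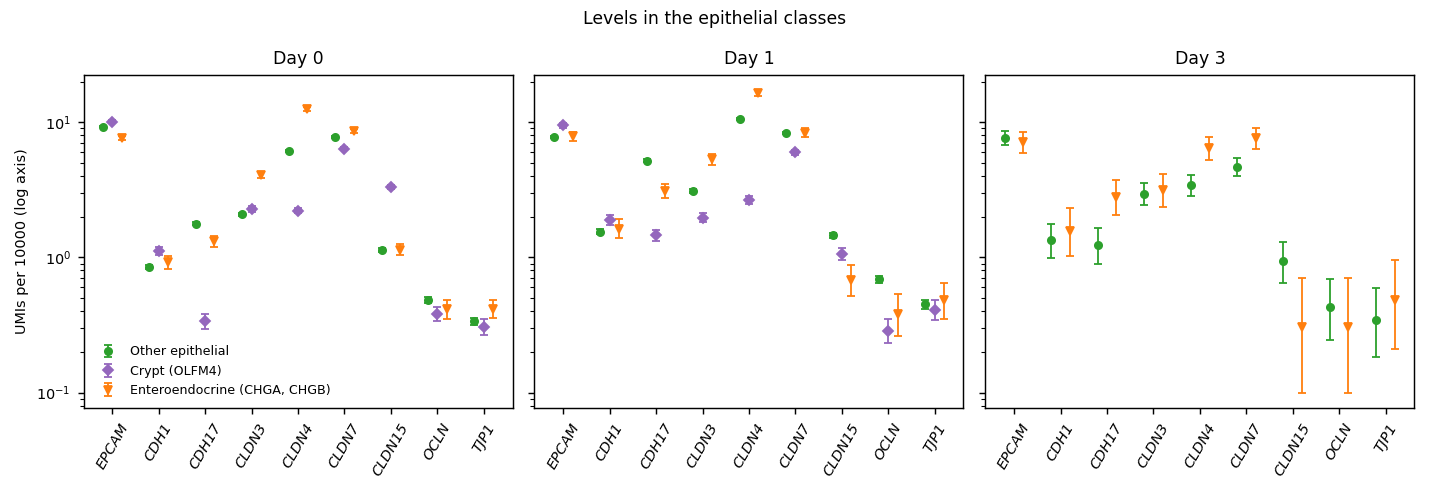
Levels of 9 genes in other epithelial (circles), crypt (diamonds) and enteroendocrine cells (triangles) at days 0, 1 and 3, in UMIs per 10000 on a log axis with exact 95% Poisson intervals, for classes of at least 20 cells. CLDN4 was lowest in crypt cells (2.22 and 2.64) and highest of these 3 classes in enteroendocrine cells (12.6 and 16.6) at days 0 and 1, with goblet cells drawn within the other epithelial cells.

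Enteroendocrine cells, the hormone-secreting cells of the epithelium, held more CLDN4 and CLDN3 than the other epithelial cells as a whole at days 0 and 1. Goblet cells within that class held CLDN4 at 14.4 and 12.8 and CLDN3 at 5.10 and 5.11 per 10000, so at day 0 they were above the enteroendocrine level of both genes. In enteroendocrine cells CLDN4 was 12.6, 16.6 and 6.44 per 10000 at days 0, 1 and 3, which is 2.04 (1.98 to 2.11), 1.57 (1.49 to 1.66) and 1.89 (1.44 to 2.46) times the level of the other epithelial cells. CLDN3 was 4.08, 5.31 and 3.16 per 10000, or 1.96, 1.71 and 1.07 times. CLDN15 was 1.14, 0.683 and 0.304 per 10000, or 1.00, 0.469 and 0.325 times, and OCLN was 0.858 (0.724 to 1.01), 0.553 (0.381 to 0.778) and 0.712 (0.204 to 2.03) times, with no difference inside the intervals of days 0 and 3. Goblet cells held the most OCLN of the subgroups of the other cells at days 0 and 1, and their part in the OCLN ratios was not tested. CDH17 was 0.738 (0.672 to 0.808) and 0.597 (0.528 to 0.673) times at days 0 and 1 but 2.28 (1.48 to 3.51) times at day 3. The day 3 ratio rested on 46 UMIs in each class, from 29 and 34 cells. From day 1 to day 3 CDH17 was 0.899 times in enteroendocrine cells and 0.235 times in other epithelial cells. Enteroendocrine cells held fewer UMIs per cell (medians of 4291, 5255 and 5285, against 12330.5, 18909 and 10647). After thinning, 71.3%, 79.6% and 44.8% of them held a CLDN4 UMI, against 41.9%, 58.1% and 20.6% of the other cells. In the fit with B cells 0 of 10 members passed against other epithelial cells (edgeR, 1 at an unadjusted p below 0.05, 0 with DESeq2), beside 4.41% of all genes called higher and 1.62% called lower. That fit gave CLDN4 a log2 fold change of -0.26 ± 0.86, although its level was 1.57 to 2.04 times higher in enteroendocrine cells within the libraries of days 0, 1 and 3. In the fit on the epithelial classes alone, OCLN had a log2 fold change of -0.87 ± 0.24 (adjusted p = 0.0302, edgeR's quasi-likelihood test), the 1 member of 9 that passed, beside 11.6% of genes called lower and 10.1% called higher. CLDN4 was 0.51 ± 0.20 (adjusted p = 0.0971) and passed with DESeq2 (0.60, adjusted p = 0.00361), with which OCLN did not (0.165). CLDN15 was -1.09 ± 0.37 (0.0617), CLDN3 0.29 ± 0.25 (0.455) and EPCAM -0.48 ± 0.19 (0.109). OCLN did not pass without day 0 (0.341) or without day 1 (0.539), CLDN15 passed without day 0 (-1.59, adjusted p = 0.0342) and had an adjusted p of 0.317 without day 1, and CDH17 passed without day 3, the library where its ratio went the other way (-0.87, adjusted p = 0.0155, against -0.47 and 0.350 with it).

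**Figure D4:**
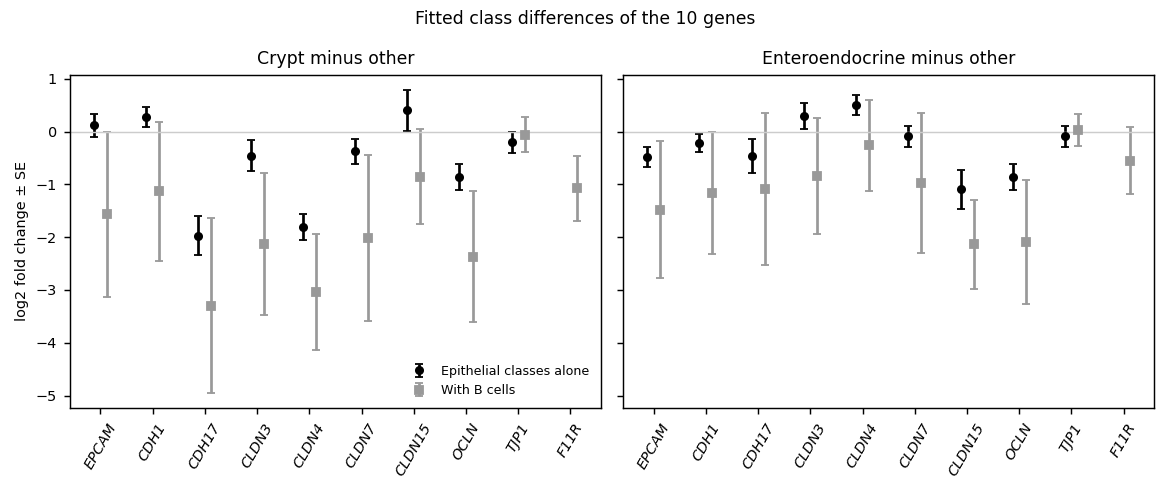
Fitted log2 fold change with its SE for each gene in crypt (left) and enteroendocrine cells (right) against other epithelial cells, from the fit on the epithelial classes alone (circles) and the fit with B cells (squares). The fit on epithelial classes put CLDN4 at -1.81 and CDH17 at -1.97 in crypt cells, and its SEs were smaller than those of the fit with B cells.

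Among the other epithelial cells, goblet cells (FCGBP, CLCA1 and MUC2, mucus proteins, at least 5 UMIs), FABP6 cells (the ileal bile acid carrier, at least 10 UMIs) and apolipoprotein cells (APOA1, APOA4 and APOB, at least 10 UMIs) were told apart from the remaining cells. Their numbers at days 0, 1, 3, 7 and 14 were 490, 120, 21, 0 and 0 for goblet, 329, 111, 1, 67 and 23 for FABP6 and 574, 402, 3, 17 and 1 for apolipoprotein cells. At day 0 the goblet cells held CLDN4 at 14.4 per 10000 and CLDN3 at 5.10, which is 4.93 (4.63 to 5.24) and 3.15 (2.89 to 3.43) times the level of the remaining cells. At day 1 the same ratios were 2.45 (2.14 to 2.82) and 1.70 (1.42 to 2.06), with 56 remaining cells. CLDN4 in goblet cells was 3.50 times the level of FABP6 cells at day 0 and 1.34 times (1.27 to 1.41) at day 1. Against apolipoprotein cells it was 3.17 times at day 0 and 1.24 times (1.19 to 1.29) at day 1. Apolipoprotein cells held CDH17 at 2.34 and 5.95 per 10000 at days 0 and 1, or 2.23 and 3.06 times the remaining cells, and EPCAM at 0.692 and 0.728 times. FABP6 cells of day 7 held CLDN7 at 17.1 and CLDN15 at 1.06 per 10000, against 7.51 and 0.0804 in the remaining cells of that library, the latter from 2 UMIs. CLDN15 in FABP6 cells was 0.861 (0.772 to 0.961), 1.93 (1.27 to 3.07) and 13.2 (3.53 to 111) times the remaining cells at days 0, 1 and 7, and CLDN7 was 1.09, 1.18 and 2.28 times. The remaining cells of day 7 had a median of 3463 UMIs and a mitochondrial share of 16.4%, against 9236 and 8.41% in the FABP6 cells, and the part of this in the difference was not tested.

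Contrasts were tested where at least 3 libraries held 20 cells of both subgroups, which was so for FABP6 against remaining cells. None of 9 members passed (edgeR's quasi-likelihood test over 11830 genes, 1 at an unadjusted p below 0.05), beside 2.08% of all genes called higher and 2.52% called lower. CDH17 came nearest, higher by 0.74 ± 0.20 on the log2 scale (adjusted p = 0.0574), and it passed with at least 50 cells per class (0.0394), without day 3 (0.0420) and without day 14 (0.0383). At day 3 only goblet cells (21) and at day 14 only FABP6 cells (23) made a sum. With the library as a block, such a lone sum carries nothing on this contrast. The setting of 50 cells dropped these same sums, so these passes are not separate evidence of a difference. CLDN15 passed without day 0 (log2 fold change of 1.72, adjusted p = 0.0177). Goblet and apolipoprotein cells met the limit of 20 cells beside the remaining cells in 2 libraries each and were not tested.

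**Figure D5:**
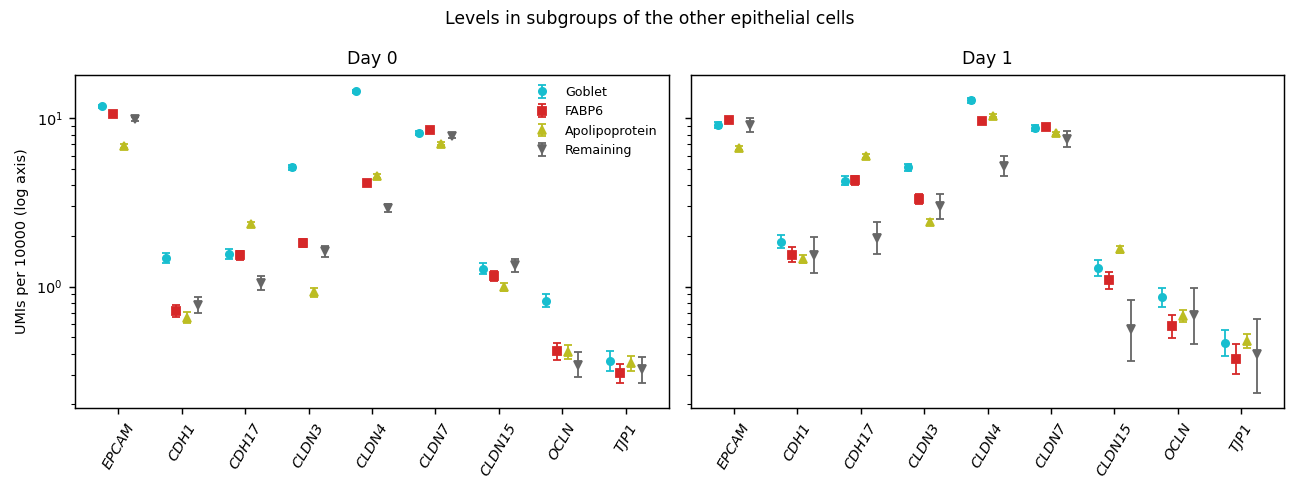
Levels of 9 genes at days 0 and 1 in goblet (circles), FABP6 (squares), apolipoprotein (upward triangles) and remaining other epithelial cells (downward triangles), in UMIs per 10000 on a log axis with exact 95% Poisson intervals. CLDN4 at day 0 was 14.4 in goblet cells and 2.93 in remaining cells.

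Between ages, with 1 library each, a gene was counted as changed where its level was at least 2 times higher or lower and the pair of ages held at least 20 UMIs, and no test was possible. From day 0 to day 1, 1 of 10 members reached this in other epithelial cells, beside 7.16% of 13018 genes higher and 5.66% lower. This was CDH17, 2.93 times higher (2.83 to 3.04), and it was also 4.33 times higher (3.71 to 5.06) in crypt cells and 2.37 times (2.04 to 2.75) in enteroendocrine cells. CDH17 was 2.74, 2.80 and 2.54 times higher in goblet, FABP6 and apolipoprotein cells and 1.85 times in the remaining cells. CLDN4 was 2.32 and 2.26 times higher in FABP6 and apolipoprotein cells and 0.886 times the earlier level in goblet cells. CLDN15 at day 1 was 1.28 times its day 0 level in other epithelial cells, 0.597 times in enteroendocrine cells and 0.320 times (0.285 to 0.358) in crypt cells. Of 10 members, 5 were at least 2 times higher in apolipoprotein cells (beside 8.03% of genes), 3 in FABP6 cells (11%) and 1 in goblet cells (8.57%). None was at least 2 times lower in these cells, beside 4.19%, 2.77% and 5.33% of genes. In the remaining cells 1 of 9 was lower, CLDN15 at 0.421 times (0.267 to 0.633), and none higher, beside 9.99% and 10.9% of genes. In crypt cells 1 of 9 members was higher and 1 lower, beside 4.91% and 6.0% of all genes. In enteroendocrine cells 1 of 9 was higher and none lower, beside 4.72% and 6.2%.

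From day 1 to day 3, 2 of 10 members were at least 2 times lower in other epithelial cells, CDH17 at 0.235 times (0.172 to 0.314) and CLDN4 at 0.325 times (0.271 to 0.387), beside 24.5% of genes lower and 19.4% higher. Goblet cells made up 21 of the 34 other epithelial cells of day 3 and 120 of 689 at day 1. Summed crypt markers in the class were 59.5 per 10000 at day 3 against 13.9 at day 1, 7 goblet markers 344 against 105, and 9 enterocyte markers 8.54 against 199. The part of these shifts in the difference was not tested. Within goblet cells alone CLDN4 was 0.122 times, CDH17 0.159 times and CLDN7 0.433 times the day 1 level, 3 of 9 members, beside 28.8% of genes lower and 10.3% higher. In enteroendocrine cells CLDN4 was 0.389 times (0.317 to 0.474) while CDH17 was 0.899 times (0.643 to 1.23), and CLDN15 was 0.445 times (0.140 to 1.10). Of 9 members, 2 were lower there, beside 16.5% of genes.

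From day 3 to day 7, 3 of 9 members were at least 2 times higher in other epithelial cells, EPCAM 2.36 times (2.09 to 2.68), CDH17 3.66 times (2.70 to 5.07) and CLDN7 3.24 times (2.77 to 3.81), beside 24.9% of genes higher and 8.62% lower. The make-up of the class also changed, from 1 FABP6 cell of 34 to 67 of 139. From day 7 to day 14, CLDN3 was 2.67 times higher (2.04 to 3.47) and CLDN15 0.274 times (0.0990 to 0.612), beside 7.58% of genes higher and 31.0% lower, and 23 of the 24 cells of day 14 were FABP6 cells.

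From day 0 to day 7, CDH17 was the only 1 of 10 members past 2 times in other epithelial cells, at 2.53 times (2.30 to 2.77), beside 18.9% of genes higher. CDH1, EPCAM and CLDN7 lay just under this limit, at 1.99, 1.94 and 1.94 times. In the class as a whole CLDN4 was lower, at 0.746 times (0.680 to 0.816), and CLDN3 was 0.891 times (0.770 to 1.03). Goblet cells, with CLDN4 at 14.4 per 10000, were 490 of the 1782 cells of day 0, and none was found at day 7. The part of this change of make-up in the ratios was not tested. The members summed were 1.61 times higher (log2 ratio of 0.69, beside a median of 0.24 over all genes). EPCAM and CLDN7 held 1929 and 1619 of the 5152 summed UMIs of day 7. Over alternative settings the summed log2 ratio ran from 0.32 to 0.80. FABP6 cells alone were also compared, a choice made after seeing the data. There CDH17 was 2.84 times higher at day 7 than at day 0 (2.49 to 3.23), CDH1 2.14 times (1.72 to 2.65), CLDN7 2.0 times (1.88 to 2.14) and EPCAM 1.80 times (1.69 to 1.91), with 3 of 9 members past 2 times, beside 16.8% of genes. CLDN4, lower in the whole class, was 1.10 times (0.971 to 1.23) in FABP6 cells. In the remaining cells it was 1.88 times (1.56 to 2.24). From day 7 to day 14 in FABP6 cells, CLDN3 was 2.25 times higher, CDH1 2.01 times, EPCAM 1.5 times and CLDN15 0.346 times, beside 8.22% of genes higher and 26.1% lower. EPCAM in FABP6 cells was thus 10.7, 9.80, 19.1 and 28.8 per 10000 at days 0, 1, 7 and 14. Their median UMIs per cell were 16501, 20248, 9236 and 6491 at these ages, while the gates asked for the same number of UMIs at each age. The part of depth in these levels was not tested.

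Other genes of junctions and adhesion were counted in 9 lists holding 112 genes of the tables. Of 105 that could be tested, 91 were higher and 6 lower in other epithelial than in B cells (edgeR), beside 26.1% and 30.6% of all genes. The 6 lower genes were JAM3 (-2.52, adjusted p = 0.00415), JAM2 (-2.24, 0.0209), MPDZ (-1.41, 0.0459), CDH2 (N-cadherin, -5.16, 0.000349), CD44 (-2.46, 0.00161) and GJA1 (connexin 43, -2.84, 0.00108), log2 fold changes with edgeR's adjusted p. Among tight junction genes 16 of 20 were higher, among them MARVELD3 (5.69) and CLDN2 (5.54). Likewise higher were 10 of 11 polarity genes, 12 of 14 adherens junction genes and 10 of 11 genes of desmosomes and cytokeratins.

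In crypt against other epithelial cells, the fit on the epithelial classes alone put 8 of 97 listed genes higher and 28 lower, beside 11.2% and 15.5% of all genes. The list of microvillus and brush border genes gave 10 of 11 lower, with a median log2 fold change of -1.48 beside -0.03 over all genes. It was led by the actin bundler ESPN (-4.38, adjusted p = 2.31e-05 with edgeR) and the intermicrovillar cadherins CDHR2 (-2.87, 0.000813) and CDHR5 (-2.39, 0.000597). Among tight junction genes 5 of 17 were lower, including CLDN10 (-2.81), CXADR (-1.06) and CGN (-0.94), and none was higher. CD44 (2.74), GJB1 (1.96) and the aPKC gene PRKCI (1.61) were higher. In the fit with B cells 0 of 105 were higher and 1 was lower, ESPN, beside 2.97% and 3.58% of all genes.

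In enteroendocrine against other epithelial cells, 9 of 97 listed genes were higher and 35 lower in the fit on the epithelial classes alone, beside 10.1% and 11.6% of all genes, so the share of higher genes was near that of all genes. The plakins PPL (4.04, adjusted p = 3.13e-05 with edgeR) and EVPL (3.1, 0.00291), which link desmosomes to keratins, were higher, as was the keratin KRT19 (0.80), while DSP (-1.13), DSG2 (-0.81) and DSC2 (-0.78) of the desmosome were lower. Among tight junction genes 3 of 17 were higher, CLDN10 (3.61, adjusted p = 0.000250 with edgeR), MPDZ (1.51) and ILDR1 (1.28), and 6 were lower, among them MARVELD3 (-1.44), CLDN2 (-1.18) and CXADR (-1.07). Among matrix adhesion genes 1 of 14 was higher, BCAM (1.15), and 6 were lower, among them COL17A1 (-2.65), LAMA3 (-2.25) and CD151 (-1.77). In the fit with B cells 2 of 105 were higher, PPL and EVPL, and 4 were lower, beside 4.41% and 1.62% of all genes.

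The genes whose log2 scaled counts were most like those of the summed members over the 16 sums of UMIs were DNAJC22 (Pearson's r = 0.988), C13H3orf52 (0.988), OSR2 (0.985), CRB3 (0.982), a polarity gene, and ELMO3 (0.980). These sums share libraries and classes, so the correlations are a description.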

How the data were processed

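Single-cell 3′ RNA-seq (10x Genomics) of male piglet ileum was read from 6 unfiltered matrices, 1 per age. The sample labels give ileum, while the series text names the cecum. Per the submitters' processing notes, reads were handled with Cell Ranger 3.1.0 and STAR on susScr11. The deposited values are raw UMI counts, which the authors did not normalise. Positions came from RefSeq of Sscrofa11.1, where all 10 members matched.

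Gated cells were summed per library and class (at least 20 cells), and the sums tested with edgeR 4.0.16 (quasi-likelihood, TMM, filterByExpr, library as a block, Benjamini-Hochberg over all genes, threshold 0.05). DESeq2 1.42.0 (R 4.3.3) was an alternative. No age had replicate libraries, so p-values set a class difference against the spread left between ages after class and library were fitted. They do not cover the spread between animals. For crypt cells only days 0 and 1 gave sums. The members and gene lists were chosen with earlier results of these data known. Named genes were the 10 members, up to 3 genes per list and direction by log2 fold change past the threshold, and the 5 genes most like the summed members by Pearson's r. Checks on simulated counts for other epithelial against B cells (12676 genes) recovered 72 of 100 4-fold and 90 of 100 8-fold changes, and 6.36% of calls were false. For enteroendocrine against other epithelial cells on the epithelial classes alone (10827 genes), 85 and 97 of 100 were recovered, and 11.2% of calls were false. Both shares were above the threshold of 0.05, so calls close to it, such as those of OCLN, are less certain. Each simulated fold was the same in all libraries, while the measured ratios to B cells differed widely between them. Crypt against other epithelial cells was not simulated. Alternatives covered the gate, cell filters, doublets, free RNA, scaling, the block and leaving out each library.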

Additional observations from a re-analysis of the deposited data

Results flagged for a closer look

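Between days 0 and 1, members went in opposite directions in different epithelial classes, with counting intervals on opposite sides of no change. With 1 library per age the differences were not tested, and the intervals cover counting error only. CLDN3 at day 1 was 1.49 times its day 0 level in other epithelial cells and 1.30 times in enteroendocrine cells, against 0.860 times in crypt cells. CLDN7 was 1.07 times in other epithelial cells and 0.941 times in crypt cells, but its log2 ratio in other epithelial cells (0.10) was no higher than the median over all genes there (0.11), so it did not stand above that shift. CLDN15 was 1.28 times in other epithelial cells, 0.597 times in enteroendocrine cells and 0.320 times in crypt cells. OCLN was 1.43 times in other epithelial cells and 0.754 times in crypt cells.

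The other epithelial cells were not uniform in these ratios, and their make-up differed, with 574 apolipoprotein cells of 1782 at day 0 and 402 of 689 at day 1. CLDN15 was 1.67 times in apolipoprotein cells, 1.01 in goblet, 0.945 in FABP6 and 0.421 in remaining cells. CLDN3 was 2.60, 1.00, 1.83 and 1.85 times in the same order, and OCLN 1.63, 1.05, 1.41 and 1.98 times. The part of the make-up in the ratios of the whole class was not tested.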

How the results depend on the processing

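Leaving out 1 library at a time gave 8 to 10 members called against B cells, 0 to 3 in crypt and 0 to 2 in enteroendocrine cells in the fits on epithelial classes alone, and 0 to 1 for FABP6 against remaining cells. Without the library block (replicate block), 9 members were called against B cells, and TJP1 was lost (log2 fold change of 0.20, adjusted p = 0.722). With at least 50 cells per class, 1 member was called for FABP6 cells. Against other epithelial cells, the fit with B cells called 0 crypt members, DESeq2 called 1, and epithelial classes alone gave 3 in crypt and 1 in enteroendocrine cells. The cause was not tested.

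The summed log2 ratio of day 7 to day 0, 0.69 as reported, was 0.57 with a gate of 3 UMIs, 0.46 with a gate of 10 per 10000, 0.73 without possible doublets, 0.78 with estimated free RNA taken off, 0.32 as a mean over cells, 0.37 with TMM scaling and 0.80 in FABP6 cells. In FABP6 cells the sign turned for CLDN4 (-0.42 to 0.13), CLDN3 (-0.17 to 0.25), CLDN15 (0.20 to -0.11) and F11R (0.18 to -0.49, from 1 UMI at day 7). OCLN, 0.22 as reported, was -0.34 as a mean over cells, -0.098 with TMM and -0.072 with the gate of 10. CLDN15 was -0.24 with that gate and -0.12 with TMM, and F11R was -0.28 as a mean over cells and -0.14 with TMM.

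Other signs turned, all for log2 fold changes not past the threshold. In crypt cells these were EPCAM 0.12, CDH1 0.28 and CLDN15 0.40 on epithelial classes alone, CLDN15 0.51 and TJP1 0.068 with the gate of 3 UMIs, and CLDN15 1.09 without the block. In enteroendocrine cells they were CLDN3 0.29, CLDN4 0.51 and TJP1 -0.089 on epithelial classes alone, CLDN3 0.16, CLDN4 0.64 and TJP1 -0.28 without the block, CLDN4 0.059 and TJP1 -0.16 without possible doublets, and TJP1 -0.043 with at least 50 cells and -0.0037 without the filter. In enteroendocrine cells on epithelial classes alone, TJP1 was 0.00083 with DESeq2 and 0.0024 with RLE size factors, and CLDN7 was 0.0073 with RLE. For FABP6 cells TJP1 was 0.012 with at least 50 cells. With each library left out in turn, signs turned for TJP1 in FABP6 cells (-0.13 to 0.023), in crypt cells (-0.15 to 0.14) and in enteroendocrine cells (-0.074 to 0.12, and -0.10 to 0.013 on epithelial classes alone), for CLDN4 in enteroendocrine cells (-0.84 to 0.093), for CLDN7 in enteroendocrine cells (-0.22 to 0.046) and for CLDN15 in crypt cells (-0.60 to 1.17), the latter 2 on epithelial classes alone.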
